A study of Saccharomyces cerevisiae with 16 samples.

Results

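The data are 4 arrays of *Saccharomyces cerevisiae* strain Σ1278b, of 16 in the series: the 2 titled as overexpressing *FLO8* and the 2 titled wild type with a trailing b, called wild type b here. They were chosen by title alone, and no measured value entered the choice. Transcripts were assayed with the Affymetrix Yeast Genome 2.0 array, and the values are intensities put on the log2 scale for 5498 probe sets of 5449 *S. cerevisiae* genes. All of these arrays are labelled as haploid *MATα* cells with the *ura3-52* allele. *TRP1*, *LEU2* and *HIS3* are labelled as replaced by *hisG* (*trp1Δ::hisG*, *leu2Δ::hisG* and *his3Δ::hisG*), and these marker labels are the same in every group. Wild type b carried the empty multicopy *URA3* vector YEpLac195. The *FLO8* overexpressed group is described by source name as carrying a multicopy vector with *FLO8*, but its plasmid label names the empty vector, and the plasmid label of the 2 arrays titled *flo8* deleted names the *FLO8* plasmid. These labels contradict the titles, and the groups are named by title throughout. The labels describe cultures of 5 ml in synthetic dropout medium with 2% glucose at 30 °C, harvested as they entered the stationary phase, with 2 biological replicates per group.

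Flo8 is a transcription factor that acts downstream of cyclic AMP and protein kinase A, together with its partner Mss11, at the promoter of the cell wall adhesin gene *FLO11* and of flocculin genes. It is needed for flocculation, invasive growth and the filamentous growth of diploids. The laboratory strain S288c carries a nonsense mutation in *FLO8*, whereas Σ1278b has an intact copy and is the strain in which filamentous growth is mostly studied. The same kinase lowers the activity of Msn2 and Msn4, the transcription factors of the general stress response, and glycogen and trehalose stores grow when it is little active.

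The *FLO8* transcript was higher on the arrays titled *FLO8* overexpressed. Its log2 intensity was 11.59 and 11.63 in wild type b, 15.71 and 12.90 with *FLO8* overexpressed, and 11.06 and 11.16 on the *flo8* deleted arrays. Both overexpression arrays lay above both wild type b arrays, by 2.69 ± 0.66 (SE) on average, and they differed from each other by 2.81, the largest replicate difference in this group among all probe sets. The adjusted p of this difference was 0.9999 in limma's fit to all 16 arrays, in which every group shares a single variance per probe set, and 0.0278 when each group of arrays had its own weight. Without *FLO8* overexpressed replicate 2 the difference was 4.10 (adjusted p = 3.50e-05), and without replicate 1 it was 1.28. The levels go with the titles and against the plasmid labels. The *FLO8* signal of the arrays titled *flo8* deleted was -0.50 relative to wild type b (adjusted p = 0.9997) and not near the background, which is the level of probe sets for other organisms, with a 95th percentile between 2.07 and 2.08 on these 6 arrays. Which part of *FLO8* the probe set covers is not given in the sources used here.

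The plasmid's marker moved with *FLO8* on the same array. *URA3*, an enzyme of uracil synthesis that the genomic *ura3-52* allele does not supply, had 15.89 and 15.78 in wild type b, 15.999 and 13.67 with *FLO8* overexpressed, and 15.81 and 15.80 on the *flo8* deleted arrays. Replicate 2 of the overexpression group was therefore lower in *URA3* than replicate 1 by 2.33, the third-largest replicate difference of that group. The array's 3 control probe sets for *URA3* gave 13.44, 12.91 and 12.48 on this array and between 14.95 and 15.67 on the other 5 arrays of the set. The part of the lower marker signal in the *FLO8* difference between the replicates was not tested. *LEU2*, which the labels give as deleted, had 14.42 and 14.58 in wild type b and 14.32 and 14.47 with *FLO8* overexpressed.

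**Figure D1:**
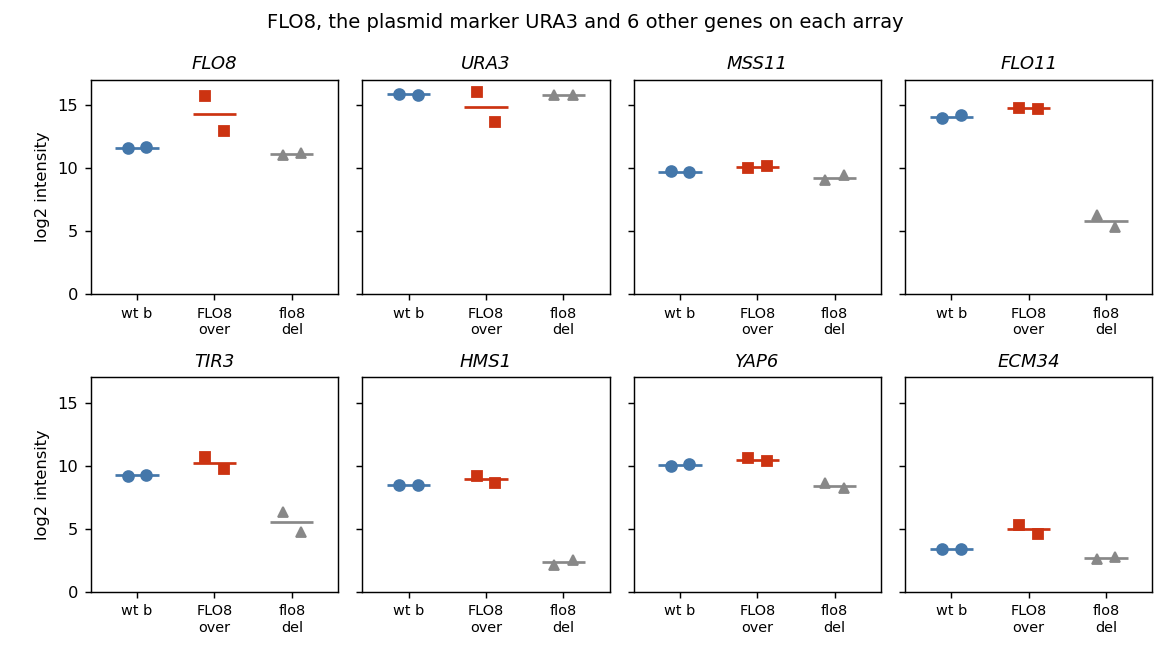
Log2 intensity of *FLO8*, the plasmid marker *URA3*, *MSS11* and 5 other genes on each of the 6 arrays of the set, 2 per group, with a horizontal line at each group's mean. The 2 *FLO8* overexpressed arrays had 15.71 and 12.90 for *FLO8*, and *FLO11*, *TIR3* and *HMS1* lay low on the *flo8* deleted arrays only.

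Few transcripts differed between the *FLO8* overexpressed and wild type b arrays. Of 5498 probe sets, 3 passed an adjusted p of 0.05 (0.0546%), all of them higher with *FLO8* overexpressed, and none passed as lower. They are *EGO4*, *SPG4* and YFL064C. At an unadjusted p of 0.05 there were 80 (1.46%). The difference was within 0.25 of zero for 5078 probe sets, and its median over all probe sets was -0.00026. Both overexpression arrays lay above both wild type b arrays for 1402 probe sets (25.5%) and below both for 1421 (25.8%), and these shares are the background for the counts of gene lists that follow. The difference was at least 1 for 43 of the former (0.782%) and at least 1 in the other direction for 4 of the latter (0.0728%). With a weight for each group of arrays, 253 probe sets passed (4.6%), 135 higher (2.46%) and 118 lower (2.15%), among them all 3 of the first test, and 38 of the 253 were at least 1 higher (0.691%) and 1 at least 1 lower (0.0182%). The replicates of these groups lay close together, with a root mean square SD of 0.0910 in wild type b and 0.120 with *FLO8* overexpressed, against 0.857 in the group that varied most, which is S288c with *MSS11* overexpressed. All groups enter the single variance of the first test.

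**Figure D2:**
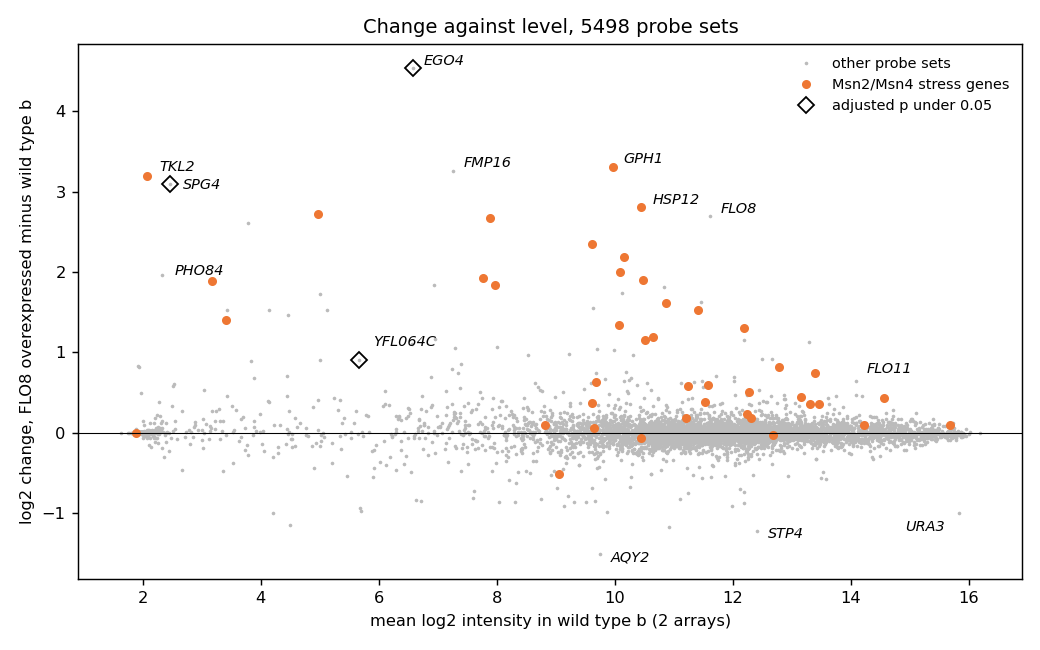
Log2 change with *FLO8* overexpressed against the mean log2 intensity in wild type b for 5498 probe sets, with the 42 Msn2/Msn4 stress genes in orange and the 3 probe sets with an adjusted p under 0.05 as diamonds. Most probe sets lie near 0, and 43 with arrays apart lie at or above 1 against 4 at or below -1.

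The largest change was that of *EGO4* (YNR034W-A), which rose 23.2-fold. Its log2 intensity was 6.33 and 6.84 in wild type b and 11.05 and 11.18 with *FLO8* overexpressed, a change of 4.53 ± 0.54 (SE, adjusted p = 0.0303). *EGO4* was at 6.80 and 7.36 on the *flo8* deleted arrays, and it was 4.04 higher with *FLO8* overexpressed than there (adjusted p = 0.00762).

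*SPG4*, a gene needed for survival in the stationary phase at high temperature, rose 8.56-fold from near the background. It had 2.38 and 2.56 in wild type b, 5.40 and 5.73 with *FLO8* overexpressed, and 2.35 and 2.69 on the *flo8* deleted arrays. The change of *SPG4* was 3.10 ± 0.36 (adjusted p = 0.0303), and the difference from the *flo8* deleted arrays was 3.05 (adjusted p = 0.00534).

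YFL064C is an open reading frame among the repeated sequences near a chromosome end, and its probe set can share sequence with other copies, so that its signal is uncertain. It rose 1.87-fold, from 5.75 and 5.58 to 6.66 and 6.48, a change of 0.90 ± 0.11 (adjusted p = 0.0338). YFL064C had 6.22 and 6.49 on the *flo8* deleted arrays, so that wild type b was the lowest of the 3 groups. The neighbouring frame YFL065C differed by 0.97 (adjusted p = 0.203), and YLR462W, another subtelomeric frame, by 0.74 (adjusted p = 0.203).

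None of the 3 calls held when any one of the 4 arrays was left out. The adjusted p of *EGO4* was then between 0.184 and 0.264, with a change between 4.28 and 4.79. *EGO4* and *SPG4* also missed the threshold in the fit to 6 arrays (adjusted p = 0.0555 for both) and in the fit to 4 arrays (0.0738 for both). With replicate number as a block, *EGO4* (adjusted p = 0.0758) and YFL064C (0.0872) missed it and *SPG4* passed (0.0498). Against the 2 arrays of the other Σ1278b wild type set, where the median of all probe sets was higher by 1.21, *EGO4* was higher by 3.57, *SPG4* by 0.78 and YFL064C by 3.67.

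Of the 30 largest positive differences with arrays apart, 14 were those of genes in a general stress response list, chosen with earlier results known. Of 42 genes known to be activated by Msn2 and Msn4 or typical of that response, 34 lay above wild type b on both arrays with *FLO8* overexpressed and 1 lay below, which are 81.0% and 2.38% against 25.5% and 25.8% of all probe sets. Their median change was 0.68, beside -0.00026 for all probe sets, and 19 were at least 1 higher, among 43 of all probe sets (0.782%). None passed the test across all arrays. With a weight for each group of arrays 24 of the 42 passed as higher, among 135 of all probe sets (2.46%). The mean log2 intensity over the list was 10.07 and 10.33 on the wild type b arrays and 11.12 and 11.42 on the *FLO8* overexpressed arrays. On the *flo8* deleted arrays, which are compared with the same wild type b arrays, 22 of the 42 lay above and 1 below, with a median of 0.32. Over all 5498 probe sets, 1764 lay above and 1840 below in that comparison.

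Both the size and the direction of this difference rest on wild type b as the control. With each array centred on its median, the mean level of the same 42 genes relative to the array's median was -1.48 and -1.24 in wild type b, -0.43 and -0.14 with *FLO8* overexpressed, and -0.49 and 0.68 on the 2 arrays of the other Σ1278b wild type set, which also carried the empty vector. Wild type b lay below that other wild type set for 32 of the 42 genes and above it for 1, with a median of -1.16. Against the other wild type set 3 of the 42 were higher with *FLO8* overexpressed and 10 lower, with a median of -0.23. Counts over all probe sets were not made for these centred comparisons, so the counts of the 42 have no background here. The values of the other set have an array median near 10.2, against 11.6 here, and whether both sets were normalized together is not stated. Set and group cannot be told apart in that comparison, and the difference between the wild types bears on every stress gene described next.

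Members of the stress list that act on glycogen and its precursors are given first. *GPH1*, glycogen phosphorylase, which releases glucose from glycogen, had 9.72 and 10.22 in wild type b and 13.24 and 13.31 with *FLO8* overexpressed, a difference of 3.31 ± 0.82 (adjusted p = 0.9999, and 0.00044 with group weights). On the *flo8* deleted arrays *GPH1* was at 8.60 and 10.09. *GDB1*, the debranching enzyme, had 10.06 and 10.10 in wild type b and 11.42 on both arrays with *FLO8* overexpressed, higher by 1.34, and it alone passed in the fit to the 4 arrays (adjusted p = 0.0298). *GSY2*, the main glycogen synthase, was higher by 1.62, from 10.61 and 11.11 to 12.28 and 12.68. *PGM2*, the phosphoglucomutase that links glycogen to glycolysis, had 10.01 and 10.18 in wild type b and 11.89 and 12.29 with *FLO8* overexpressed, a difference of 2.00. *HXK1*, the hexokinase that is induced when glucose is low, was higher by 1.31, and *TPS1*, trehalose phosphate synthase, by 0.36. Both arrays with *FLO8* overexpressed lay above both wild type b arrays for each of these 6 genes.

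*HSP12*, a small protein that protects membranes, had 10.03 and 10.87 in wild type b and 12.85 and 13.66 with *FLO8* overexpressed, higher by 2.81 ± 0.90. *HSP26*, a small heat shock chaperone, went from 7.78 and 8.17 to 9.73 and 9.89, and *CTT1*, the cytosolic catalase, from 10.17 and 10.79 to 12.09 and 12.65. *DDR2*, a stress gene of unknown function, had 9.30 and 9.91 in wild type b and 11.62 and 12.30 with *FLO8* overexpressed. These 4 differences had adjusted p values of 0.9999 across all arrays, and with group weights they were 0.0118 for *HSP12* and *CTT1*, 0.0109 for *HSP26* and 0.0076 for *DDR2*. *SIP18*, which is induced by drying, had 3.88 and 3.70 in wild type b and 6.25 and 6.55 with *FLO8* overexpressed, and *TSA2*, a peroxiredoxin, had 5.13 and 5.11 against 6.42 and 6.86. *TSA2*, which is counted among the oxidative stress genes and not in the stress list, was also 2.10 above the *flo8* deleted arrays (adjusted p = 0.0213).

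Other members of the stress list with high levels in these cells differed less. The 6 with the highest mean level, *HOR7*, *GLK1*, *GPD1*, *PNC1*, *TPS1* and *SOD2*, were higher by between 0.10 and 0.74. *PNC1*, the nicotinamidase, had 13.31 and 13.47 in wild type b and 14.08 and 14.17 with *FLO8* overexpressed, the largest of these differences at 0.74 ± 0.35. *GLK1*, glucokinase, was higher by 0.43 and *SOD2*, the mitochondrial superoxide dismutase, by 0.36. The groups did not overlap for 5 of the 6, and they overlapped for *GPD1*, an enzyme of glycerol synthesis.

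The 30 largest positive differences with arrays apart ran from 1.47 to 4.53, and all 30 passed with group weights. They include 14 of the 42 genes of the stress list and 5 of the 21 of the stationary phase list, among 5498 probe sets tested. In any list are 25 of the 30, and the share of all probe sets in any list was not counted. The lists were chosen with earlier results of these data known, so these counts are no independent support. *FMP16*, a mitochondrial protein, had 6.96 and 7.56 in wild type b and 10.16 and 10.87 with *FLO8* overexpressed, a difference of 3.26. Enzymes of the pentose phosphate pathway were *TKL2*, the minor transketolase, *NQM1*, a transaldolase, and *SOL4*, a phosphogluconolactonase. *TKL2* was near the background in wild type b, at 2.02 and 2.13, and at 3.88 and 6.66 with *FLO8* overexpressed, so that its mean difference of 3.19 is only a lower limit and owes most to replicate 2. *NQM1* was higher by 1.83 and *SOL4* by 2.68. *RTN2*, a reticulon of the endoplasmic reticulum, was higher by 2.72 and *MSC1* by 2.18. *DCS2*, a relative of the decapping scavenger, was higher by 1.93, *ALD3*, an aldehyde dehydrogenase, by 1.89, *GAD1*, glutamate decarboxylase, by 1.82 and *TFS1*, an inhibitor of carboxypeptidase Y, by 1.53. *PHO84*, the high-affinity phosphate transporter, had 2.27 and 2.37 in wild type b, 4.44 and 4.13 with *FLO8* overexpressed, and 2.00 and 1.93 on the *flo8* deleted arrays. Of the 20 phosphate genes measured, 7 lay above wild type b on both arrays and 5 below, with a median of 0.0060. Apart from *EGO4* and *SPG4*, all genes in these paragraphs on large differences were chosen after their values were seen, except for those named as the most abundant of their list.

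**Figure D3:**
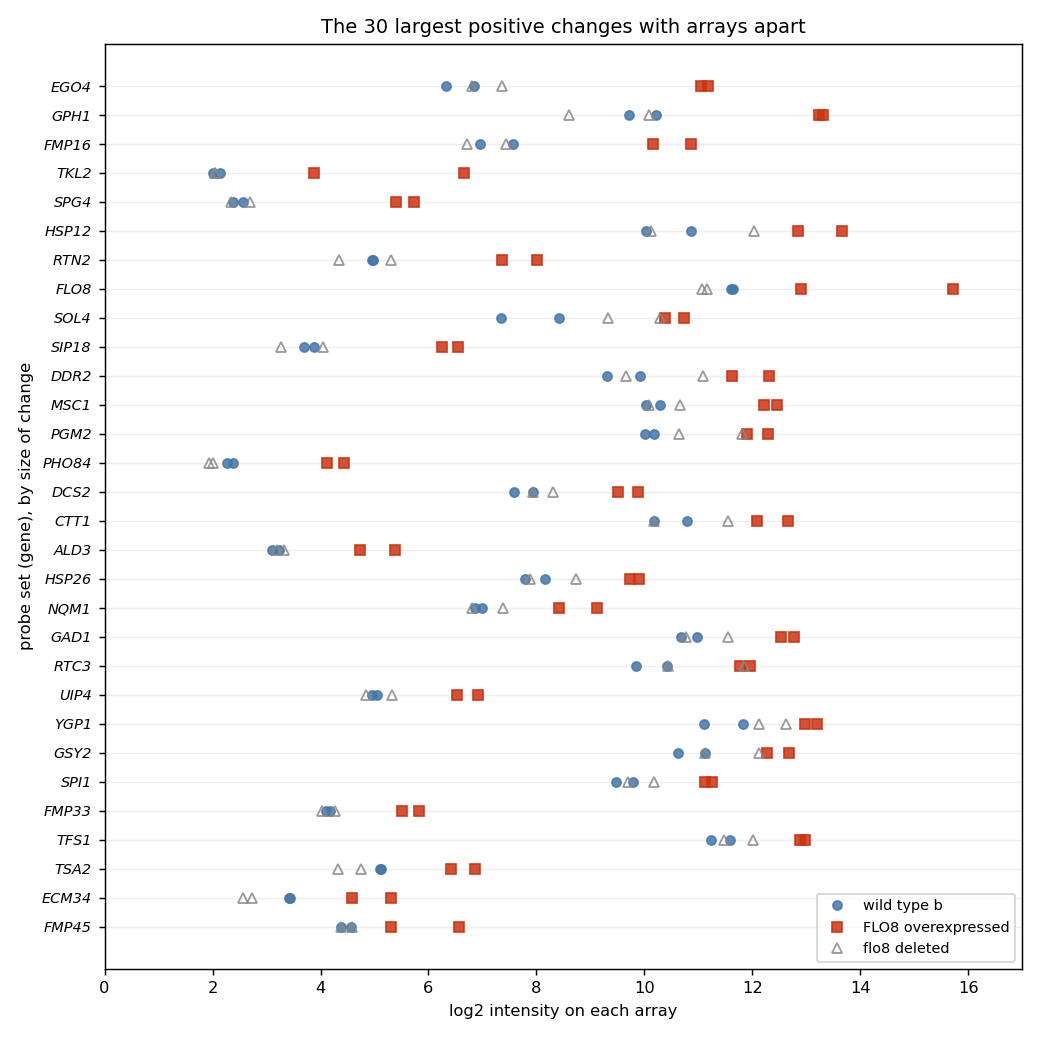
Log2 intensity on each array (2 per group) for the 30 largest positive differences between *FLO8* overexpressed and wild type b among probe sets whose arrays do not overlap, ordered by size from *EGO4* (4.53) to *FMP45* (1.47). Red squares lie to the right of blue circles in every line, and the grey triangles of the *flo8* deleted arrays lie nearer to wild type b for most genes.

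The stationary phase list was split. Of 21 genes, 2 rose (*EGO4* and *SPG4*), 10 lay above wild type b on both arrays and 4 below, and the median was 0.0025. *FMP45*, a membrane protein of the cell cortex, had 4.38 and 4.56 in wild type b and 5.31 and 6.57 with *FLO8* overexpressed. *PBI2*, an inhibitor of the vacuolar protease B and an abundant member of the list, was higher by 0.47. The vitamin B6 genes *SNZ1* and *SNO1*, which lie next to each other and are also counted as stationary phase genes, went the other way. *SNO1* had 9.72 and 9.60 in wild type b and 8.65 and 8.96 with *FLO8* overexpressed, a difference of -0.85, and the difference of *SNZ1* was -0.57.

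Chaperones of the heat shock response showed small differences that mostly went one way. Of 19, 15 lay above wild type b on both arrays and 2 below, with a median of 0.16, and none passed the test across all arrays. *SSA1*, a cytosolic Hsp70, had 13.15 and 13.44 in wild type b, 14.45 and 14.40 with *FLO8* overexpressed, and 13.87 and 14.70 on the *flo8* deleted arrays. *HSP82*, the inducible Hsp90, had 12.55 and 12.79 in wild type b and 13.64 and 13.54 with *FLO8* overexpressed, and its constitutive copy *HSC82* was higher by 0.11. *SSA1* and *HSP82* have near-identical relatives that can share signal. The 5 other most abundant members, *SSA2*, *KAR2*, *HSP60*, *SSC1* and *SSE1*, were higher by between 0.06 and 0.21.

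No flocculin or other wall mannoprotein gene passed the test across all arrays against wild type b, and their differences varied in size. *FLO11*, the adhesin of invasive growth and the best known target of Flo8, had 13.93 and 14.24 in wild type b and 14.79 and 14.67 with *FLO8* overexpressed, a difference of 0.65 ± 0.50 (adjusted p = 0.9999, and 0.0966 with group weights). The arrays did not overlap, and *FLO11* was high in wild type b already. On the *flo8* deleted arrays *FLO11* was at 6.25 and 5.34, and the difference between *FLO8* overexpressed and *flo8* deleted was 8.94 (adjusted p = 3.33e-05). The flocculin genes *FLO1* (0.01), *FLO9* (0.02) and *FLO10* (0.04) differed by less than 0.05, with *FLO1* at the background on all 6 arrays, between 2.07 and 2.12. Signs of differences this small depend on the processing. The flocculin genes share repeats, and the probes were designed on the sequence of S288c, so that levels in Σ1278b are uncertain.

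Among 23 probe sets of the Srp1/Tip1 family of wall mannoproteins, 8 lay above and 6 below, with a median of 0.0074. *TIR3* had 9.19 and 9.26 in wild type b, 10.69 and 9.71 with *FLO8* overexpressed, and 6.30 and 4.71 on the *flo8* deleted arrays. *TIR3* was higher than wild type b by 0.97 ± 0.60 (adjusted p = 0.9999) and higher than on the *flo8* deleted arrays by 4.69 (adjusted p = 0.00627). *TIP1*, the most abundant member, had 13.70 and 13.80 in wild type b, 14.33 and 14.08 with *FLO8* overexpressed, and 13.27 and 13.40 on the *flo8* deleted arrays, with a difference of 0.87 from the latter (adjusted p = 0.0167). *TIR1* differed from wild type b by 0.09, *TIR2* by 0.04, *TIR4* by -0.08 and *DAN4* by -0.06. *DAN1* was at the background, between 1.92 and 1.93 on these 6 arrays. *PAU4* and *PAU18*, of the large family of near-identical seripauperins, differed from wild type b by -0.94 and -0.85, both with arrays apart, and the signal of one *PAU* gene cannot be told from that of another with certainty. In the list of 23 other wall mannoproteins, 4 were at least 1 higher, namely *YGP1* (1.62), *SPI1* (1.55), *ECM34* (1.53) and *PIR3* (1.16). Of these, *YGP1* and *SPI1* are also induced by stress, and *ECM34* is described in the study as uncharacterized, with a role in the wall only suspected. *ECM34* had 3.43 and 3.42 in wild type b, 5.31 and 4.59 with *FLO8* overexpressed, and 2.56 and 2.72 on the *flo8* deleted arrays.

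Transcription factors at *FLO11* were examined next. Of 24 partners and regulators, *FLO8* included, 9 lay above wild type b on both arrays and 6 below, which are 37.5% and 25%, with a median of 0.026. *MSS11*, the partner of Flo8, had 9.74 and 9.70 in wild type b, 10.02 and 10.12 with *FLO8* overexpressed, and 9.08 and 9.41 on the *flo8* deleted arrays, a difference of 0.35 ± 0.30 from wild type b (adjusted p = 0.9999, and 0.0446 with group weights). *HMS1*, a helix-loop-helix factor of filamentous growth, had 8.45 and 8.48 in wild type b, 9.17 and 8.64 with *FLO8* overexpressed, and 2.14 and 2.53 on the *flo8* deleted arrays. *YAP6*, a basic leucine zipper factor, had 9.97 and 10.12, 10.57 and 10.36, and 8.59 and 8.22 in the same order of groups. The differences between *FLO8* overexpressed and *flo8* deleted were 6.57 for *HMS1* (adjusted p = 0.00025) and 2.06 for *YAP6* (adjusted p = 0.00039). *PHD1*, a factor of pseudohyphal growth, had 10.60 and 10.70 in wild type b and 11.20 and 10.78 with *FLO8* overexpressed, higher by 0.34. *STE12*, the factor of mating and filamentous growth, was higher by 0.08.

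The pathways that signal to Flo8 and to filamentous growth stayed close to wild type b. Of 21 genes of the cyclic AMP and protein kinase A pathway, 6 lay above wild type b on both arrays and 7 below, with a median of -0.023 and a range from -0.68 to 0.14. *TPK2*, the catalytic subunit that acts on Flo8, had 11.94 and 11.97 in wild type b and 12.08 and 12.12 with *FLO8* overexpressed, and *BCY1*, the regulatory subunit, was higher by 0.12. *RGS2*, which turns off the G protein of the glucose-sensing branch, was the lowest of the list. It had 9.57 and 9.66 in wild type b, 8.94 and 8.92 with *FLO8* overexpressed, and 10.62 and 10.93 on the *flo8* deleted arrays, and the difference of *RGS2* between the latter groups was -1.84 (adjusted p = 0.00569). Of 18 genes of the filamentous growth MAPK pathway, 7 lay above and 5 below, with a median of 0.0059. *PGU1*, an endopolygalacturonase that this pathway activates, had 2.68 and 2.38 in wild type b and 3.53 and 2.75 with *FLO8* overexpressed, and 2.07 and 2.08 on the *flo8* deleted arrays. *MSB2*, a mucin-like sensor at the head of the pathway, was higher by 0.18.

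**Figure D4:**
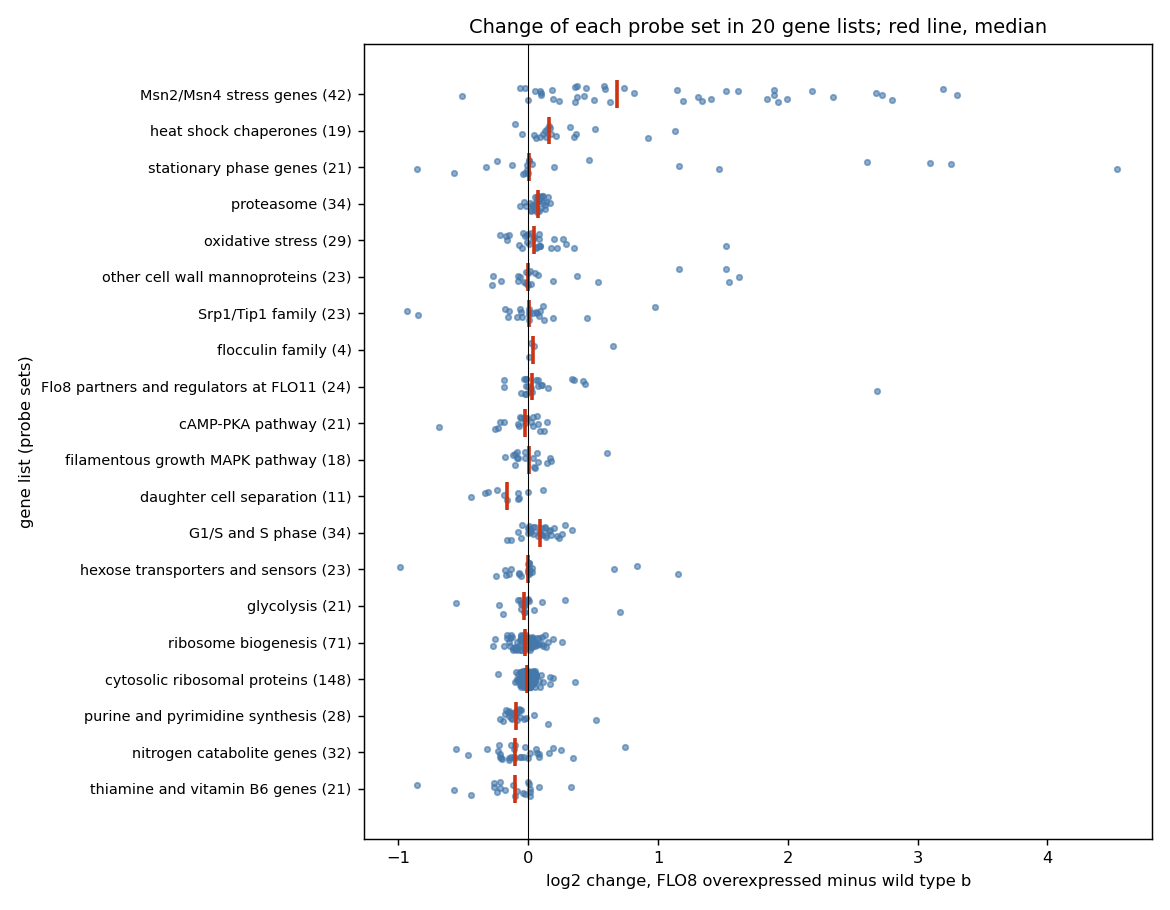
Log2 change with *FLO8* overexpressed against wild type b for every probe set of 20 gene lists, with the number of probe sets in brackets and a red line at the list's median. The median of the 42 Msn2/Msn4 stress genes lies at 0.68, and the medians of the other 19 lists lie within 0.2 of 0.

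Negative differences were smaller, and none passed the test across all arrays. The 30 largest with arrays apart ran from -1.51 to -0.59, and 25 of them passed with group weights. None of the 30 is in the stress list and 1 is in the stationary phase list. *STP4*, a zinc-finger protein, had 12.18 and 12.64 in wild type b, 11.04 and 11.34 with *FLO8* overexpressed, and 13.46 and 13.93 on the *flo8* deleted arrays. Its difference from wild type b was -1.22 ± 0.24 (adjusted p = 0.439), and it was the single probe set at least 1 lower that passed with group weights (0.00262). *STP4* was lower than on the *flo8* deleted arrays, with a difference of -2.51 (adjusted p = 0.00146).

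The aquaporin *AQY2* had the most negative difference, -1.51 ± 0.77 (adjusted p = 0.9999). It had 9.96 and 9.53 in wild type b, 9.26 and 7.19 with *FLO8* overexpressed, and 13.09 and 13.14 on the *flo8* deleted arrays. YLL053C, the adjoining frame that forms part of the aquaporin gene in Σ1278b, had 11.03 and 10.79, then 10.53 and 8.95, and then 13.70 on both arrays, in the same order of groups. For *AQY2* and YLL053C replicate 2 was the lower of the overexpression arrays, by 2.08 and 1.57. The differences between *FLO8* overexpressed and *flo8* deleted were -4.89 for *AQY2* (adjusted p = 0.0203) and -3.96 for YLL053C (adjusted p = 0.0136).

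*MTH1*, which represses hexose transporter genes when glucose is absent, had 9.86 and 9.88 in wild type b, 8.60 and 9.16 with *FLO8* overexpressed, and 10.55 and 10.76 on the *flo8* deleted arrays. *MIG2* and *MIG3*, repressors of genes for other carbon sources, differed from wild type b by -0.53 and -0.58. The difference from the *flo8* deleted arrays was -1.77 for *MTH1* (adjusted p = 0.0328), -0.76 for *MIG2* (0.0336) and -1.26 for *MIG3* (0.0366). *HXT7*, a high-affinity hexose transporter, was on the other side, at 11.93 and 12.43 in wild type b and 13.27 and 13.39 with *FLO8* overexpressed. Its probes cannot be told with certainty from those of its near-identical neighbour. Over the 23 probe sets of hexose transporters and sensors, 8 lay above and 5 below, with a median of 0.0020.

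Of the other negative differences, *UPS3*, a mitochondrial protein, had the lowest adjusted p (0.178), with 9.50 and 9.52 in wild type b, 8.52 and 8.78 with *FLO8* overexpressed, and 9.76 and 9.98 on the *flo8* deleted arrays. *CIS1* had 9.35 and 9.27, then 8.43 and 8.48, and then 10.23 and 10.08 in the same order. Both were lower than on the *flo8* deleted arrays, with differences of -1.22 for *UPS3* (adjusted p = 0.00511) and -1.70 for *CIS1* (adjusted p = 0.00762). *PHM6*, a phosphate gene of unknown function, had 4.59 and 4.39 in wild type b and 3.02 and 3.65 with *FLO8* overexpressed. YKR075C had 12.27 and 12.11 in wild type b, 11.01 and 11.61 with *FLO8* overexpressed, and 11.14 and 11.03 on the *flo8* deleted arrays, and both titled groups thus lay below wild type b for it. These genes were chosen after their values were seen.

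**Figure D5:**
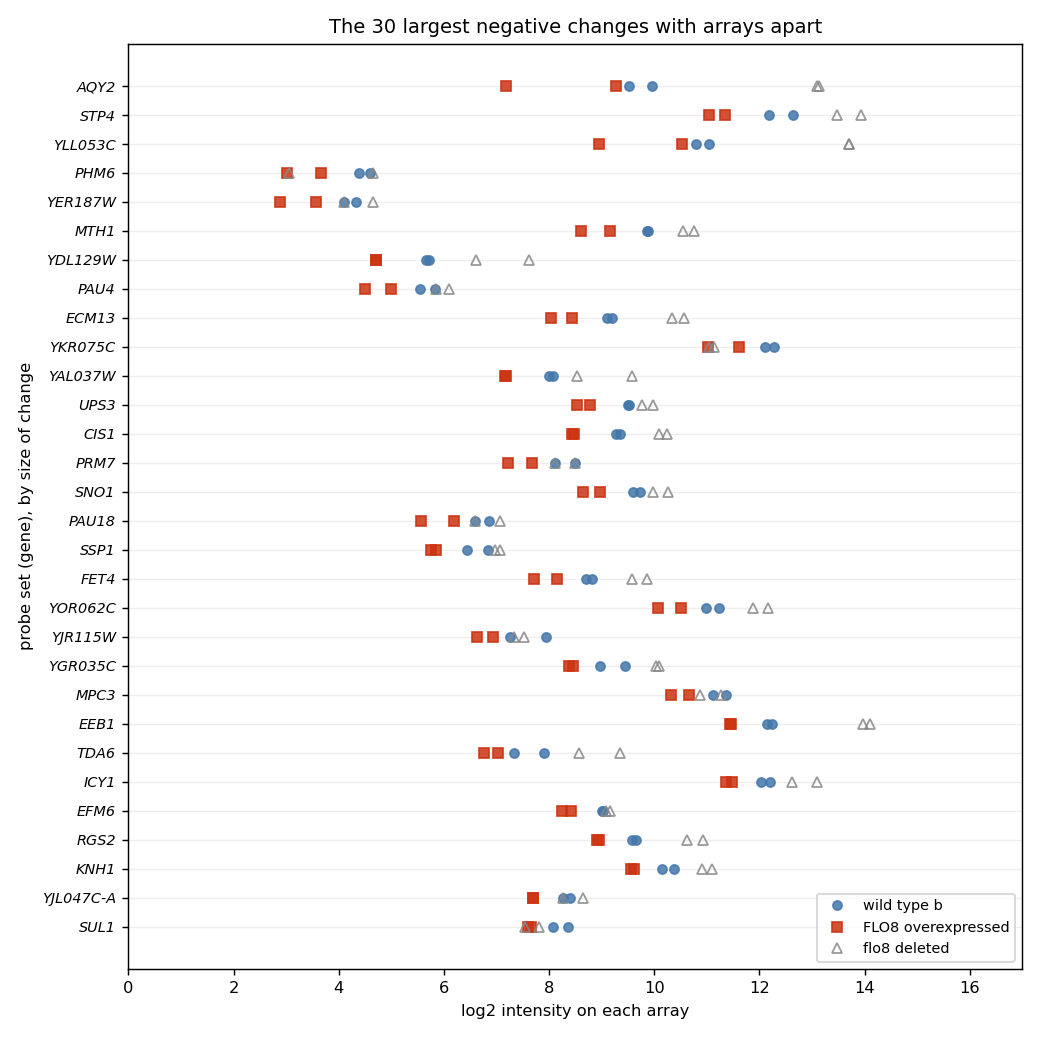
Log2 intensity on each array (2 per group) for the 30 largest negative differences between *FLO8* overexpressed and wild type b among probe sets whose arrays do not overlap, ordered by size from *AQY2* (-1.51). For 21 of the 30 the *flo8* deleted arrays (grey triangles) lie above both wild type b arrays, and for 2 they lie below both. Among all 5498 probe sets these counts were 1764 and 1840.

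The overexpression arrays and those titled *flo8* deleted were also compared directly, since both responses share the wild type b arrays, which cancel in this difference. Of 5498 probe sets 44 passed (0.8%), 22 higher (0.4%) and 22 lower (0.4%) with *FLO8* overexpressed, and 22 passed between *flo8* deleted and wild type b (0.4%). Without *FLO8* overexpressed replicate 1 the 44 became 13, without its replicate 2 they became 18, and without *flo8* deleted replicate 2 they became 9. The largest differences were those of *FLO11* and *HMS1*, given above, and that of *HSP30* in the other direction. *HSP30*, a stress-induced membrane protein, had 3.18 and 3.86 in wild type b, 2.87 and 3.43 with *FLO8* overexpressed, and 8.07 and 9.05 on the *flo8* deleted arrays (difference -5.41, adjusted p = 0.00626). *CAR2*, the ornithine transaminase of arginine breakdown, had 9.43 and 9.91 in wild type b, 10.21 and 10.62 with *FLO8* overexpressed, and 4.49 and 6.09 on the *flo8* deleted arrays (difference 5.13, adjusted p = 0.00506). *IME1*, the inducer of meiosis, had 4.91 and 4.88, then 4.32 and 4.60, and then 6.94 and 6.77 in the same order (difference -2.39, adjusted p = 3.33e-05). For all 3 the distance from wild type b was larger on the *flo8* deleted arrays than on the *FLO8* overexpressed arrays. None of the 42 stress genes and 2 of the stationary phase genes, *EGO4* and *SPG4*, were among the 44.

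The response titled *FLO8* overexpressed was set against the response of the same strain to *MSS11* on a multicopy plasmid, each measured against its own wild type, so that no array was shared. The difference between the responses passed the test for 4 of 5498 probe sets (0.0728%), 1 higher (0.0182%) and 3 lower (0.0546%) for *FLO8*. The count was 2 without *FLO8* overexpressed replicate 1 or either wild type b array, 9 and 47 without replicates 1 and 2 of the other wild type, and 28 without *MSS11* overexpressed replicate 1. *TIR2*, a wall mannoprotein, was at 8.94 and 8.87 in wild type b and 9.03 and 8.86 with *FLO8* overexpressed, whereas it had 7.50 and 7.54 in the other wild type and 13.93 and 14.38 with *MSS11* overexpressed. The responses of *TIR2* differed by -6.60 ± 0.31 (adjusted p = 1.57e-05). *MSS11* itself was higher by 0.35 in the first comparison and by 5.62 in the second, a difference of -5.27 (adjusted p = 0.00091). *FBP1*, fructose bisphosphatase of gluconeogenesis, was at the background in wild type b and with *FLO8* overexpressed, near 1.94, and 1.96 higher with *MSS11* overexpressed, with a difference between the responses of -1.95 (adjusted p = 0.00968). *TBF1*, a factor that binds telomeric repeats, was the 1 with the higher response, -0.02 against -0.90 (difference 0.89, adjusted p = 0.0177). For *FLO11* the responses were 0.65 and 3.82, which differed by -3.17 ± 0.71 (adjusted p = 0.145), from wild type levels of 13.93 and 14.24 in the first set and 11.21 and 9.73 in the second.

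Values of further genes named in the study were as follows. *NCA3*, a wall protein of the SUN family, had 8.42 and 9.06 in wild type b and 9.35 and 9.20 with *FLO8* overexpressed, and *NCE103*, carbonic anhydrase, was higher by 0.05. *ISF1* was near the background at 2.24 and 2.27 in wild type b and 2.25 and 2.24 with *FLO8* overexpressed. YMR317W (0.0072), YHR213W (0.0076) and *FIG1* (0.0065) differed by less than 0.01 at levels between 2.05 and 2.14 in these groups, and YAL064W-B differed by 0.09 at such levels. YHR213W-A, at 5.08 and 5.05 in wild type b, differed by -0.06, and *FIG2*, a wall adhesin of mating, by -0.28. *FIG1* and *FIG2* were measured by PCR in the study and were not named from its arrays. *PRM7*, a gene that responds to pheromone, has more than 1 probe set, and that with the higher level had 8.11 and 8.50 in wild type b and 7.22 and 7.68 with *FLO8* overexpressed (difference -0.86, adjusted p = 0.9999).

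The labelled mating type was checked against its markers. The 5 α-specific genes measured, among them those for α-factor, had levels between 12.01 and 15.57 on the wild type b and *FLO8* overexpressed arrays, and the 7 **a**-specific genes had levels between 1.84 and 7.60. The differences of the α-specific genes lay between -0.53 and -0.04, with 4 of them below wild type b on both arrays, and those of the **a**-specific genes lay between -0.18 and 0.0061. Of 12 haploid-specific genes 6 lay above and 3 below, and their differences lay between -0.16 and 0.08. Of 11 genes of daughter cell separation, 9 lay below wild type b on both arrays and none above, with a median of -0.16, and none passed the test across all arrays. *DSE4*, a daughter-specific glucanase, had 11.51 and 11.57 in wild type b, 11.27 and 11.33 with *FLO8* overexpressed, and 12.12 and 12.26 on the *flo8* deleted arrays, and its difference between the latter groups was -0.89 (adjusted p = 0.00539).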

How the data were processed

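Total RNA of 2 cultures per group was hybridised to Affymetrix Yeast Genome 2.0 arrays. The authors read the arrays with GCOS 1.4 and deposited linear intensity values for each probe set, background corrected and normalized. The study's methods name RMA and the submitters' processing notes name GCRMA, whose versions are not given in the sources used here. The labels give the early stationary phase and 2 replicates, and the study's methods the exponential phase and more replicates. Groups follow the titles.

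The array holds 10928 probe sets, with 213 controls and 1747 for genes of another organism. Of the 10928, 5498 matched an *S. cerevisiae* gene by identifier and were tested, and 3683 have no gene symbol in the platform annotation used. Intensities were floored at 1, which no value reached, and put on the log2 scale. A linear model with a mean for each of 8 groups was fitted to the 16 arrays with limma 3.58.1 in R 4.3.3. It left 8 residual degrees of freedom, to which the empirical Bayes step added 1.50. P-values were adjusted over all 5498 by Benjamini and Hochberg's method, and 0.05 was the threshold. Differences are log2 and carry the fit's SE. Group weights are those of limma's arrayWeights with a variance for each group. Arrays are apart where both of a group lie above, or both below, the 2 of the other. P-values of the fit to 16 arrays rest on the spread between the 2 cultures of a group, pooled over all 8 groups. They do not measure the spread of the compared groups alone, and 2 cultures per group limit the precision.

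The members and the 48 gene lists were chosen with earlier results of these data known. Named genes are *FLO8* and *MSS11*, up to 10 past the threshold per direction, those the study names from its arrays, and up to 6 per list described, past the threshold or most abundant; others are said to be chosen after their values were seen, as were *URA3*, *LEU2*, *HXT7*, *PGU1*, *PHD1*, *TPK2*, *RGS2*, *IME1*, *CAR2*, *HSP30*, *FIG1* and *FIG2*. The fit was tested on simulated data in which all groups shared the same spread for each probe set. That test therefore does not bear on groups of unequal spread, as these are. Alternatives changed the arrays fitted (6 or 4, each array left out, other wild type arrays), the weights, the probe sets kept (all organisms, dim ones removed), the scaling (quantile, array medians), the moderation (robust, with a trend), the floor, the smallest change counted and the use of replicate number as a block.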

Additional observations from a re-analysis of the deposited data

How the results depend on the processing

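The number of arrays limits what can be shown, with 2 per group and a shared variance that includes groups of wider spread. Of 1815 values for 101 genes under the alternatives, 1580 kept direction and side of the threshold, 31 were no longer past it, 142 came past it and 62 changed direction. Of the 142, 53 came with group weights, 43 against the other wild type set and 44 against all 4 wild type arrays. Of the 62, 30 came against the other wild type set and 17 against all 4 wild type arrays, with uncentred values. The cause of these changes was not tested unless fewer arrays or probe sets make it. For *FLO8* overexpressed against wild type b, the 3 calls became 0 with 6 arrays, 1 with 4 (*GDB1*) and 253 with group weights. They became 0 with no organism filter (10715 probe sets), 0 after quantile normalization and 1 (YFL064C) with a floor of 8 on the linear intensity. With uncentred values the count was 4556 against the other wild type set and 3645 against all 4 wild type arrays, where the median of all probe sets shifted by 1.21 and 0.60.

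The labels do not say whether a replicate number marks a shared culture or day. Deviations of equal-numbered arrays correlated with r = 0.15 between wild type b and *FLO8* overexpressed, 0.26 between wild type b and *flo8* deleted, and 0.16 between *FLO8* overexpressed and *flo8* deleted, over 5498 probe sets and with only 2 numbers, so that a pairing was not settled. With the replicate block the 3 calls became 1 (*SPG4*, adjusted p = 0.0498), the 44 became 42 and the 4 became 6.

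For *FLO8* overexpressed against *flo8* deleted, the 44 became 582 with 6 arrays, 99 with 4, 975 with group weights, 28 with no organism filter and 9 to 54 with an array left out. For the difference from the *MSS11* response, the 4 became 27 with 8 arrays, 193 with group weights, 2 without dim probe sets, 8 after quantile normalization, 11 with the floor of 8 and 2 to 47 with an array left out. The *FLO8* transcript passed with group weights (2.69), against the other wild type set (4.04) and against all 4 wild type arrays (3.37), and its change ran from 1.28 to 4.10 with an array left out. Of the 42 stress genes, 34 lay above wild type b, and 35 to 39 with an array left out. Leaving out an array can only keep or raise this count, so that range does not test it. After centring, 3 lay above the other wild type set and 2 above all 4 arrays. Counts over all probe sets were not made for these alternatives.

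Values against the other wild type set and against all 4 wild type arrays were not centred. The median of all probe sets shifted there by 1.21 and 0.60. A positive value smaller than that shift still lies below the median of all probe sets, so its change of sign is no reversal beyond the shift. The genes given next changed the sign of their value. Against the other wild type set, uncentred, they were *ALD3* -1.05, *DAN1* -0.088, *DAN4* 0.077, *DDR2* -0.41, *DSE4* 1.001, *FBP1* -0.74, *FIG1* -0.057, *FIG2* 1.09, *FLO1* -0.26, *FLO9* -0.19, *FMP45* -0.026, *IME1* 0.95, *LEU2* 0.99, *MIG2* 1.24, *MIG3* 0.43, *MTH1* 0.23, *PHO84* -0.78, *PIR3* -0.19, *RGS2* 0.0012, *SIP18* -0.19, *SNO1* 0.35, *SNZ1* 0.77, *TBF1* 1.68, *TIR4* 1.14, *TKL2* -0.26, *TSA2* -0.19, *UPS3* 0.84, YHR213W -0.091, YKR075C 3.11 and YMR317W -0.061. Against all 4 wild type arrays they were *DAN1* -0.043, *DAN4* 0.0098, *DSE4* 0.38, *FBP1* -0.37, *FIG1* -0.025, *FIG2* 0.40, *FLO1* -0.12, *FLO9* -0.085, *IME1* 0.26, *LEU2* 0.44, *MIG2* 0.35, *SNZ1* 0.0996, *TBF1* 0.83, *TIR4* 0.53, YHR213W -0.042, YKR075C 1.12 and YMR317W -0.027. After quantile normalization they were *DAN1* -0.0011, *FBP1* -0.00045, *FLO10* -0.015, *FLO9* -0.00048, YHR213W -0.0014 and YMR317W -0.0056. With an array left out, *URA3* ran from -2.17 to 0.16, *DAN4* from -0.22 to 0.11, *FLO9* from -0.023 to 0.073, *FLO10* from -0.016 to 0.10, *TIR2* from -0.045 to 0.13, *ISF1* from -0.026 to 0.0046 and *TBF1* from -0.035 to 0.00066.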

Other observations

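Lists not described above held no probe set that passed the test across all arrays, and those given here had medians near 0. Of 34 proteasome genes 26 lay above wild type b on both arrays and none below (median 0.079), beside 25.5% and 25.8% of all probe sets. Of 34 genes of the G1/S transition and S phase 16 lay above and 4 below (median 0.088), and of 29 probe sets of oxidative stress genes 14 lay above and 3 below (median 0.045).

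Other lists had more members below wild type b. Of 28 genes of purine and pyrimidine synthesis 20 lay below on both arrays and 2 above (median -0.094). Of 24 genes of branched-chain and aromatic amino acid synthesis 15 lay below and 2 above (median -0.035), of 24 genes of histidine, serine, threonine and proline synthesis 15 and 2 (median -0.048), and of 17 genes of arginine and lysine synthesis 6 and 0 (median -0.052). Of 30 genes of methionine and sulfur, in contrast, 8 lay below and 10 above (median 0.0069). Of 21 genes of thiamine and vitamin B6 10 lay below and 1 above (median -0.10). Of 71 genes of ribosome biogenesis 22 lay below (31.0%) and 5 above (7.04%). Of 148 probe sets of cytosolic ribosomal proteins 47 lay below (31.8%) and 14 above (9.46%). The shares below are near the 25.8% of all probe sets, and the shares above are smaller than the 25.5% of all probe sets. Of 21 glycolysis probe sets 11 lay below and 4 above, and of 32 nitrogen catabolite genes 14 lay below and 6 above (median -0.10).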
